A study of Drosophila melanogaster with 12 samples.

Results

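The translation initiation factor genes of the fly were taken as every gene whose symbol in the deposited count table begins with eIF, which gave 43 of 17868 genes. They were followed in all 12 libraries of a study of early Drosophila melanogaster embryos, with 3 biological replicates in each of 4 genotypes: Control, Drp1SG, SOD2i and Drp1SG;SOD2i, called the double genotype below. Drp1 encodes the GTPase that splits mitochondria and Sod2 the superoxide dismutase of their matrix, and SOD2i was taken to mean interference with Sod2 by RNA. The labels do not say what SG stands for, and they give no driver, promoter, strain or background allele for any group. Each replicate was a pool of 70 to 100 hand-sorted embryos at cellularization or ventral furrow formation, kept at 28 C. Some genotypes were collected over 1 hour and aged for 1.5 to 2 hours and others were collected over 2.5 to 3 hours, without a statement of which, so the collection window and the genotype cannot be told apart. The study was set up to learn what mitochondrial fusion and fission do to embryonic gene expression.

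Initiation brings the small ribosomal subunit, the initiator tRNA and an mRNA together at the start codon. Factors eIF1, eIF1A and eIF5 act on the small subunit at the start codon, eIF2 carries the initiator tRNA and is recharged with GTP by eIF2B, and eIF3 is a large scaffold on the small subunit. The eIF4 group recognises the cap of the mRNA and unwinds its leader, eIF5B joins the large subunit, and eIF6 keeps the subunits apart. In the early fly embryo much of the protein is made from mRNA that the mother loaded into the egg, and repressors that compete for the cap set which of these mRNAs are read.

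By factor number, the 43 genes were 2 of eIF1, 9 of eIF2, 16 of eIF3, 13 of eIF4, 2 of eIF5 and 1 of eIF6. Reads were listed for 37 of them, and 36 passed the filter on low counts and were tested with edgeR among 9863 genes. A gene is said to have risen, fallen or changed only at a Benjamini-Hochberg adjusted p under 0.05 over all 9863 genes, and log2 fold changes carry their standard error. Levels are CPM, counts scaled to a common library size by TMM, and levels compared between genes are CPM per kb of exon that no other gene's span shares. In embryos, fewer cells that carry a transcript and less of it per cell cannot be told apart.

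The libraries held 61757756 to 91949037 counts, and the eIF genes together took 1.14% to 1.31% of them. Within a genotype, replicate libraries had a Pearson r of 0.983 to 0.994 over the log2 CPM of all tested genes. Sod2 averaged 50.8 ± 0.691 CPM for Control, 49.5 ± 3.58 for Drp1SG, 1.82 ± 0.486 for SOD2i and 3.04 ± 0.513 for the double genotype (SD, n = 3). Drp1 averaged 36.0 ± 2.41, 84.0 ± 17.5, 22.1 ± 3.02 and 43.6 ± 0.645 CPM in the same order. The average of Drp1 was thus lower in each genotype with SOD2i than in the matching genotype without it. The log2 CPM of 19 unstable maternal transcripts, averaged in each library as a maternal index, ran from 4.00 to 5.03 in Control, 5.40 to 5.83 in Drp1SG, 3.99 to 5.48 in SOD2i and 4.97 to 5.37 in the double genotype. Of these 19 transcripts 7 rose in Drp1SG, where 9.72% of all tested genes rose, and 1 rose and 1 fell in SOD2i. No Drp1SG library overlapped Control in the index. A fit with the index as a covariate therefore cannot fully separate it from the Drp1SG genotype. Of 6 tested genes of the early zygotic wave 5 fell in Drp1SG and 2 in the double genotype, where 8.83% and 4.29% of all tested genes fell, and 1 rose in SOD2i. Another 4 genes of that wave, nullo, bnk, sc and Kr, had 0 reads and lie wholly inside another gene's span.

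Among the initiation factors the helicase and the eIF3 scaffold were the most abundant. Together eIF4A, the RNA helicase that opens mRNA leaders, and the eIF3 subunits eIF3a, eIF3b and eIF3c took 48.2% of all eIF counts, with 19.4% for eIF4A alone. By factor, eIF3 took 57.95% of eIF counts, eIF4 32.9%, eIF2 4.79%, eIF1 3.20% and eIF5 1.18%. Per kb, eIF4A stood at 959 CPM per kb over all libraries, followed by eIF3b at 445, eIF3i at 381 and eIF3c at 376 CPM per kb. The cap-binding protein eIF4E1, at 78.2 CPM per kb, and the scaffold eIF4G1, at 92.0 CPM per kb, were both listed far below the helicase that they recruit.

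**Figure D1:**
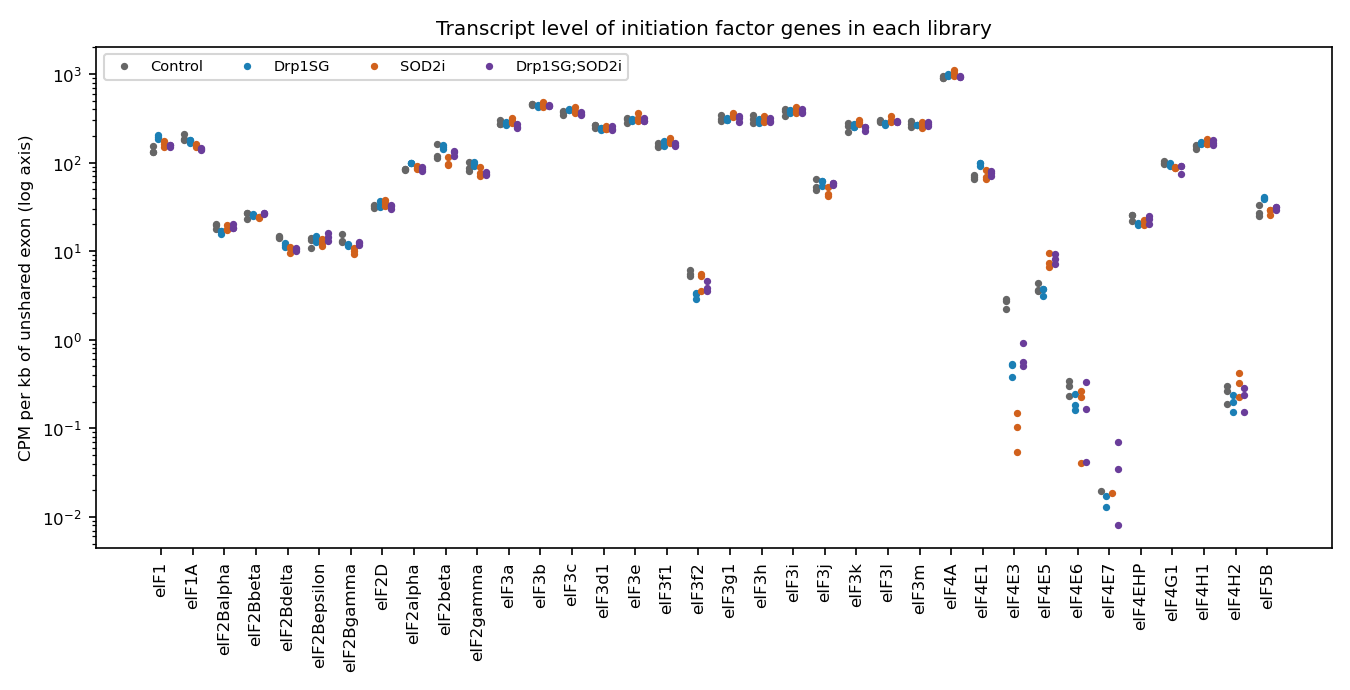
Level of each initiation factor gene in each library, in CPM per kb of exon that no other gene's span shares, on a log axis. Each point is 1 library, coloured by genotype. eIF5 and the genes with no unshared exon are left out, and libraries with 0 reads are not drawn, so eIF3d2 and eIF4E4 have no point and eIF4E7 has fewer than 12. Most genes have their genotypes close together, and eIF4E3 stands out with Control near 2.62 and SOD2i near 0.102 CPM per kb.

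Subunits of 1 complex were listed at like levels per kb, and the complexes differed from each other. The 12 eIF3 subunits other than eIF3j and the second copies eIF3f2, eIF3d2 and eIF3g2 lay between 163.9 CPM per kb for eIF3f1 and 445 for eIF3b, a 2.72-fold range with a median of 296. The loosely bound subunit eIF3j was lower, at 54.9 CPM per kb. The subunits eIF2alpha, eIF2beta and eIF2gamma stood at 88.8, 127 and 85.0 CPM per kb. The 5 subunits of eIF2B, the exchange factor that eIF2 needs after each round, lay between 11.8 CPM per kb for eIF2Bdelta and 25.5 for eIF2Bbeta, with a median of 13.4. The start codon factors eIF1 and eIF1A were close to each other at 162 and 166 CPM per kb, and eIF5B stood at 31.7 and the tRNA-delivering factor eIF2D at 33.2 CPM per kb.

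Of the 43 genes, 6 had 0 reads in all 12 libraries, and for 4 of them the zero says nothing about the gene. eIF6, eIF4B, eIF3g2 and eIF4G2 lie wholly inside the span of another gene, ytr, lncRNA:CR46482, Gfrl and the pair CG33111 and CG34355 in turn, in the RefSeq annotation of Release 6. In the deposited counts 1965 of 1966 protein-coding genes that lie wholly inside another span were at 0, on the same strand (825 of 825) and on the opposite strand (1077 of 1077). Among the 7362 protein-coding genes that overlap no other span, 413 (5.61%) were at 0. The anti-association factor eIF6 and the helicase cofactor eIF4B were therefore not measured here.

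The remaining pair of zeros, eIF3d2 and eIF4E4, overlap no other span. Their 0 reads allow a level of up to 0.0314 to 0.0499 CPM depending on the library, the level that 3 counts would give, which covers counting error only. eIF5, the GTPase activator of eIF2, was counted at 1.75 to 2.88 CPM, but CG46312 covers 96.82% of its span and leaves 158 of its 3203 exon bases unshared. Its level cannot be set beside those of other factors. eIF2gamma shares 64.02% of its span with Su(var)3-9 and keeps 77.6% of its exon bases unshared. eIF4E7 had 21 reads in all and was not tested.

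Against Control, few of the 36 tested genes changed, and the cap-binding paralogue eIF4E3 and the exchange factor subunit eIF2Bdelta fell in all 3 genotypes. In Drp1SG 4 rose and 3 fell, 19.4% of the tested eIF genes beside 18.6% of all tested genes, of which 9.72% rose and 8.83% fell. In SOD2i 1 rose and 4 fell, 13.9% beside 23.2% of all tested genes, of which 10.3% rose and 12.8% fell. In the double genotype 1 rose and 3 fell, 11.1% beside 8.91% of all tested genes, of which 4.62% rose and 4.29% fell. In each comparison the share of eIF genes lay near or under that of all genes, and the 3 comparisons share the Control libraries.

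Changes in the eIF genes were mostly small. The difference from Control was within 0.25 on the log2 scale for 27 of 36 genes for Drp1SG, 26 for SOD2i and 29 for the double genotype, that is 75%, 72.2% and 80.6%. Over all tested genes, which were not matched for level, the shares were 52.3%, 50.8% and 57.2%. Among the 30 eIF genes with a mean of at least 10 CPM they were 83.3%, 83.3% and 90%. Among the 6 with a lower mean they were 33.3%, 16.7% and 33.3%. The median log2 difference of the eIF genes was -0.02, -0.01 and -0.02, beside 0.01, 0.00 and 0.00 over all genes. Libraries of the genotype and of Control did not overlap for 14, 8 and 10 of the 36 genes, beside 38.5%, 34.1% and 30.2% of all genes.

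**Figure D2:**
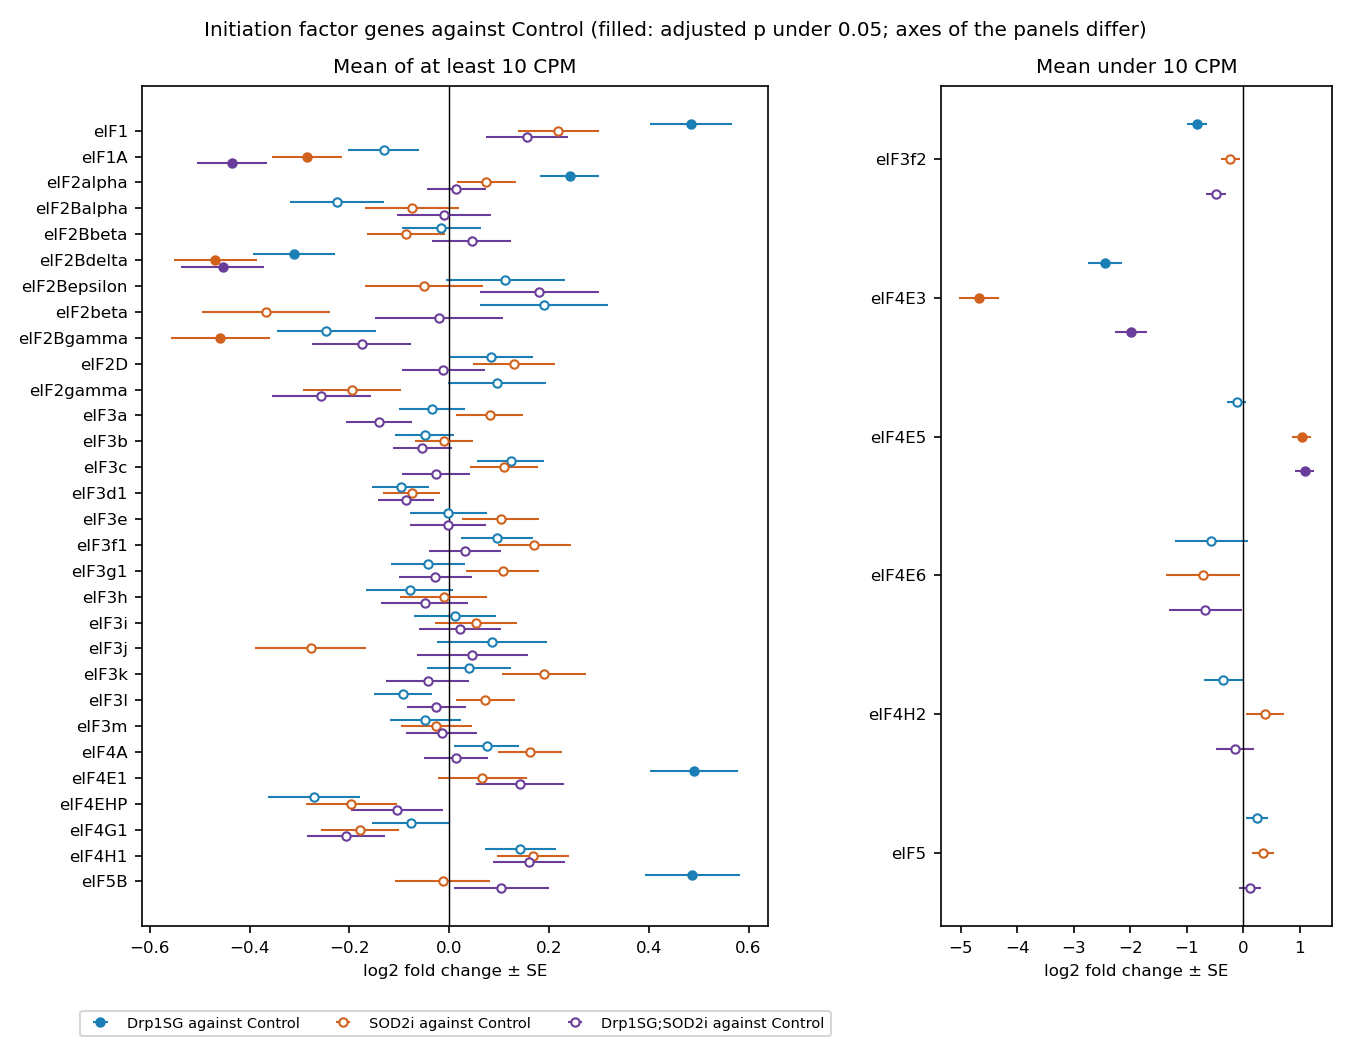
Log2 fold change against Control, with its standard error as a bar, for the 36 tested initiation factor genes in Drp1SG, SOD2i and the double genotype. Filled points passed an adjusted p of 0.05, and the panels split the genes at a mean of 10 CPM with axes of different width. Filled points of eIF4E3 lie at -2.45, -4.67 and -1.99 and those of eIF4E5 at 1.04 and 1.09, while the eIF3 subunits of the left panel lie within 0.28 of 0 and hold no filled point.

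Of the pair that scans for the start codon, eIF1 rose in Drp1SG and eIF1A fell in the SOD2i genotypes. eIF1 was counted at 89.8, 89.6 and 104 CPM in Control, 133, 124 and 140.1 in Drp1SG, 103, 109.8 and 118 in SOD2i and 101, 109 and 106 in the double genotype. All Drp1SG libraries lay above all others, and the SOD2i and double genotype libraries overlapped Control. Against Control the log2 fold change of eIF1 was 0.48 ± 0.08 in Drp1SG (edgeR adjusted p = 0.00204), 0.22 ± 0.08 in SOD2i (adjusted p = 0.0744) and 0.16 ± 0.08 in the double genotype (adjusted p = 0.272). In SOD2i eIF1 was called by the DESeq2 Wald test and with the maternal index as covariate. It was also called there without Control replicate 3 or without SOD2i replicate 1. From Drp1SG to the double genotype eIF1 fell by 0.33 ± 0.08 on the log2 scale (adjusted p = 0.0248).

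eIF1A, which helps the small subunit scan, was counted at 312, 300.3 and 359 CPM in Control and 304, 282 and 301 in Drp1SG. It was counted at 272, 270.2 and 255 CPM in SOD2i and 242, 232 and 245 in the double genotype. SOD2i and the double genotype lay below every Control library, and Drp1SG overlapped Control. Set against Control, eIF1A had log2 fold changes of -0.28 ± 0.07 in SOD2i (adjusted p = 0.0130) and -0.43 ± 0.07 in the double genotype (adjusted p = 0.00302), and in Drp1SG it was -0.13 ± 0.07 (adjusted p = 0.224). The SOD2i value was not called when SOD2i replicate 3 was left out (adjusted p = 0.0505) or when only SOD2i and Control were fitted (adjusted p = 0.0642). The authors' deposited table gives an adjusted p of 0.109 for it. Within a library the ratio of eIF1 to eIF1A counts was 0.288 to 0.298 in Control and 0.378 to 0.469 in the 9 other libraries.

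Among the subunits of eIF2, eIF2alpha, whose phosphorylation slows initiation under stress, rose in Drp1SG. Its level was 109, 111 and 113 CPM in Control, 132, 131 and 131 in Drp1SG, 121, 116 and 113 in SOD2i and 112, 119 and 106 in the double genotype. The Drp1SG libraries lay close together and above all others. In Drp1SG its log2 fold change was 0.24 ± 0.06 (adjusted p = 0.0153), and it was 0.18 with an adjusted p of 0.115 under upper-quartile scaling. From Drp1SG to the double genotype eIF2alpha fell by 0.23 ± 0.06 on the log2 scale (adjusted p = 0.0306), a call that was lost under upper-quartile scaling and without any of 5 single libraries.

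The mRNA-binding subunit eIF2beta was called in none of the 6 comparisons of the main fit. In SOD2i it was called with the filter of 1 CPM, by the DESeq2 Wald test and with the maternal index as covariate. Other settings called it in further comparisons. It stood at 119, 127 and 172 CPM in Control, 167, 159 and 152 in Drp1SG, 103, 123 and 99.3 in SOD2i and 128, 145 and 141 in the double genotype. The Control libraries spanned the range of Drp1SG and of the double genotype. eIF2gamma, which holds GTP and the initiator tRNA, fell from Drp1SG (174, 164 and 155 CPM) to the double genotype (124, 128 and 134 CPM) by 0.35 ± 0.10 on the log2 scale (adjusted p = 0.0413). That call was lost when any 1 of the 6 libraries compared was left out, and Control (139, 149 and 174 CPM) overlapped Drp1SG. With the maternal index as covariate eIF2gamma was also called in Drp1SG and in the interaction.

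Of the 5 eIF2B subunits, eIF2Bdelta fell in all 3 genotypes and eIF2Bgamma fell in SOD2i. eIF2Bdelta, a subunit of the regulatory part that senses phosphorylated eIF2, was counted at 30.1, 30.5 and 31.9 CPM in Control, 23.6, 26.1 and 24.7 in Drp1SG, 23.5, 23.0 and 20.3 in SOD2i and 22.7, 23.1 and 21.6 in the double genotype. Every Control library lay above every other library. Against Control its log2 fold change was -0.31 ± 0.08 in Drp1SG (adjusted p = 0.0227), -0.47 ± 0.08 in SOD2i (adjusted p = 0.00182) and -0.45 ± 0.08 in the double genotype (adjusted p = 0.00624). The Drp1SG call was lost without Control replicate 2, Drp1SG replicate 1 or Drp1SG replicate 3, the highest adjusted p being 0.0933, and with the maternal index as covariate (adjusted p = 0.0523). The ratio of eIF2Bdelta to eIF2Bbeta counts was 0.866 to 1.02 in Control and 0.629 to 0.780 in the other genotypes.

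eIF2Bgamma, a subunit of the catalytic part, was counted at 19.1, 18.7 and 22.7 CPM in Control and 16.7, 16.9 and 17.4 in Drp1SG. It was counted at 14.7, 15.7 and 13.6 CPM in SOD2i and 17.0, 18 and 18.5 in the double genotype. SOD2i was lowest and did not overlap any other genotype. The log2 fold change was -0.46 ± 0.10 in SOD2i (adjusted p = 0.00612), and the adjusted p was 0.0539 when only SOD2i and Control were fitted. In Drp1SG the value was -0.25 ± 0.10 (adjusted p = 0.109) and in the double genotype -0.18 ± 0.10 (adjusted p = 0.313). The other 3 subunits, eIF2Balpha, eIF2Bbeta and eIF2Bepsilon, which carries the exchange activity, were called in no comparison, and neither was eIF2D. With the maternal index as covariate eIF2D was called in the interaction.

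The eIF3 genes other than eIF3f2 stayed close to Control. Without eIF3f2, the 13 tested eIF3 genes held 0 edgeR calls against Control in each genotype, with log2 fold changes from -0.10 to 0.12 in Drp1SG, -0.28 to 0.19 in SOD2i and -0.14 to 0.05 in the double genotype. The DESeq2 Wald test and limma with voom also called 0 of the 13, and 0, 3 and 0 of them had an unadjusted edgeR p under 0.05 in Drp1SG, SOD2i and the double genotype. eIF3j gave the value of -0.28 in SOD2i (± 0.11, adjusted p = 0.0954), and it was called there with the filter of 1 CPM. Fitted with the maternal index as covariate, eIF3c and eIF3j were called in Drp1SG and eIF3c, eIF3f1, eIF3j and eIF3k in SOD2i. The summed level of the eIF3 genes was 7101 ± 350 CPM for Control, 7056 ± 182 for Drp1SG, 7357 ± 526 for SOD2i and 6875 ± 249 for the double genotype (SD, n = 3). eIF3a, the largest subunit, was lower in the double genotype (955, 1056 and 968 CPM) than in SOD2i (1099, 1239 and 1135 CPM), with a log2 fold change of -0.22 ± 0.07 (adjusted p = 0.0369). That call was lost under 3 other settings and without any of 4 single libraries.

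eIF3f2 is a second gene for the eIF3f subunit, and it fell in Drp1SG. Its level was 5.44, 5.75 and 6.48 CPM in Control, 3.49, 3.04 and 3.46 in Drp1SG, 3.71, 5.52 and 5.81 in SOD2i and 4.00, 4.83 and 3.76 in the double genotype. Drp1SG and the double genotype lay below Control without overlap, and SOD2i overlapped it. Its log2 fold change was -0.82 ± 0.18 in Drp1SG (adjusted p = 0.00771) and -0.49 ± 0.17 in the double genotype (adjusted p = 0.107). The authors' deposited table gives an adjusted p of 0.0473 for the double genotype. Fitted with the maternal index as covariate the Drp1SG value was -0.54 ± 0.20 and no longer called (adjusted p = 0.0719). The main copy, eIF3f1, was called in none of the comparisons, and per kb eIF3f2 stood at 4.40 CPM per kb beside 163.9 for eIF3f1.

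The largest differences of the 36 genes lay in the cap-binding eIF4E family, and its members moved in different directions. eIF4E1, the general cap-binding protein, was counted at 153, 160.1 and 147 CPM in Control, 204, 221 and 221 in Drp1SG, 184, 145 and 153 in SOD2i and 179, 158 and 171 in the double genotype. Drp1SG lay above all others. Against Control eIF4E1 had a log2 fold change of 0.49 ± 0.09 in Drp1SG (adjusted p = 0.00318), 0.07 ± 0.09 in SOD2i (adjusted p = 0.649) and 0.14 ± 0.09 in the double genotype (adjusted p = 0.366). Fitted with the maternal index as covariate, the Drp1SG value was 0.30 ± 0.08 (adjusted p = 0.0216).

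eIF4EHP binds the cap without binding eIF4G and is known in the fly embryo as a repressor of maternal mRNAs. The libraries held 153, 129.8 and 153 CPM in Control, 117, 124 and 121 in Drp1SG, 130.4, 133 and 117 in SOD2i and 137, 120.4 and 148 in the double genotype. Drp1SG lay below Control, with a log2 fold change of -0.27 ± 0.09 that was not called (adjusted p = 0.0612), and it was called under upper-quartile scaling, with the filter of 1 CPM and by the DESeq2 Wald test. The ratio of eIF4E1 to eIF4EHP counts was 0.960 to 1.23 in Control, 1.75 to 1.83 in Drp1SG, 1.09 to 1.41 in SOD2i and 1.15 to 1.31 in the double genotype.

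eIF4E3, a paralogue known from the fly testis, where it is needed in male germ cells, fell in all 3 genotypes. It was counted at 180, 156 and 181 reads in Control, 28, 52 and 40 in Drp1SG, 7, 10 and 4 in SOD2i and 40, 67 and 39 in the double genotype. In CPM these were 2.85, 2.30 and 3.01 in Control, 0.393, 0.544 and 0.551 in Drp1SG, 0.106, 0.156 and 0.0561 in SOD2i and 0.578, 0.959 and 0.520 in the double genotype. Control lay above and SOD2i below all other libraries, and Drp1SG and the double genotype overlapped.

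The log2 fold change of eIF4E3 was -2.45 ± 0.30 in Drp1SG (adjusted p = 2.21e-04), -4.67 ± 0.36 in SOD2i (adjusted p = 4.85e-06) and -1.99 ± 0.29 in the double genotype (adjusted p = 0.00150). Its mean level was 18.2%, 3.90% and 25.2% of Control. The double genotype stood above SOD2i by 2.69 ± 0.37 on the log2 scale (adjusted p = 6.79e-04). The difference from Drp1SG was 0.46 ± 0.30 (adjusted p = 0.376). The authors' deposited tables give log2 fold changes of -2.45, -4.69 and -1.99. In the 9 other settings and the 12 fits without 1 library each, every one of the 3 calls against Control held. With the filter of 1 CPM the gene was tested through its Control libraries alone, since no other library reached 1 CPM. The same was true where only SOD2i and Control were fitted, so these settings add no separate support.

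Testis marker genes were listed at low levels in the same embryos. Of 12 markers, 2 (Mst84Da and fzo) had no reads, and 1 of these lies wholly inside another gene's span, where the zero says nothing. Another 8 were tested, of which 4 fell in SOD2i, 1 fell and 1 rose in Drp1SG and 1 fell in the double genotype. Of all tested genes 12.8% fell in SOD2i, 8.83% in Drp1SG and 4.29% in the double genotype. Their summed level was 35.0 to 39.3 CPM in Control, 27.0 to 28.1 in Drp1SG, 15.5 to 18.7 in SOD2i and 27.1 to 29.0 in the double genotype. Their part in the eIF4E3 result was not tested. lncRNA:CR43953, the next gene along the chromosome, was looked up after the values of eIF4E3 were seen. It had 159 reads over the 3 Control libraries, 10 for Drp1SG, 13 for SOD2i and 29 for the double genotype, counts given as a description only. The following gene, CG7213, was called in none of the comparisons with Control, but it held only 97 reads over the 12 libraries. Dscam4, the next gene after CG7213, fell in each genotype. Its log2 fold change was -0.48 for Drp1SG (edgeR adjusted p = 0.00691) and -0.43 for SOD2i (adjusted p = 0.0101). It was -0.46 for the double genotype (adjusted p = 0.0177). Genes looked up on the other side of eIF4E3 were not tested. Whether the falls of these neighbours and of eIF4E3 are linked was not tested.

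eIF4E5, another cap-binding paralogue, rose with SOD2i. Its level was 3.61, 3.69 and 4.43 CPM in Control, 3.86, 3.83 and 3.14 in Drp1SG, 7.48, 9.80 and 6.78 in SOD2i and 8.29, 9.37 and 7.26 in the double genotype. All libraries with SOD2i lay above all libraries without it. The log2 fold change was 1.04 ± 0.17 in SOD2i (adjusted p = 9.97e-04) and 1.09 ± 0.17 in the double genotype (adjusted p = 0.00217), and from Drp1SG to the double genotype it was 1.20 ± 0.17 (adjusted p = 9.36e-04). In Drp1SG it was -0.12 ± 0.17 (adjusted p = 0.677). The 3 calls of eIF4E5 held in each of the other settings and without each library. Neighbours of eIF4E5 were also looked up. Of these, Pdp1 rose in the double genotype by 0.82 on the log2 scale (edgeR adjusted p = 0.0177). CG8111 had a log2 fold change of -0.50 in SOD2i (adjusted p = 0.0196). The other neighbours looked up were not called against Control.

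eIF4E5 had more reads than eIF4E3 in every library, and the ratio between them differed by genotype. The ratio of eIF4E5 to eIF4E3 counts, genes with nearly the same exon length, was 1.27 to 1.6 in Control, 5.70 to 9.82 in Drp1SG, 62.8 to 120.75 in SOD2i and 9.76 to 14.35 in the double genotype. eIF4E1 remained the most abundant of the family that binds eIF4G, at 78.2 CPM per kb beside 5.84 for eIF4E5 and 0.964 for eIF4E3. eIF4E6 stood at 0.211 and eIF4E7 at 0.0151 CPM per kb. eIF4E6, with 2 to 17 reads in a library, was not called in any comparison, and at this depth its fold changes carried standard errors of 0.64 to 0.68 in the 5 comparisons between genotypes.

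**Figure D3:**
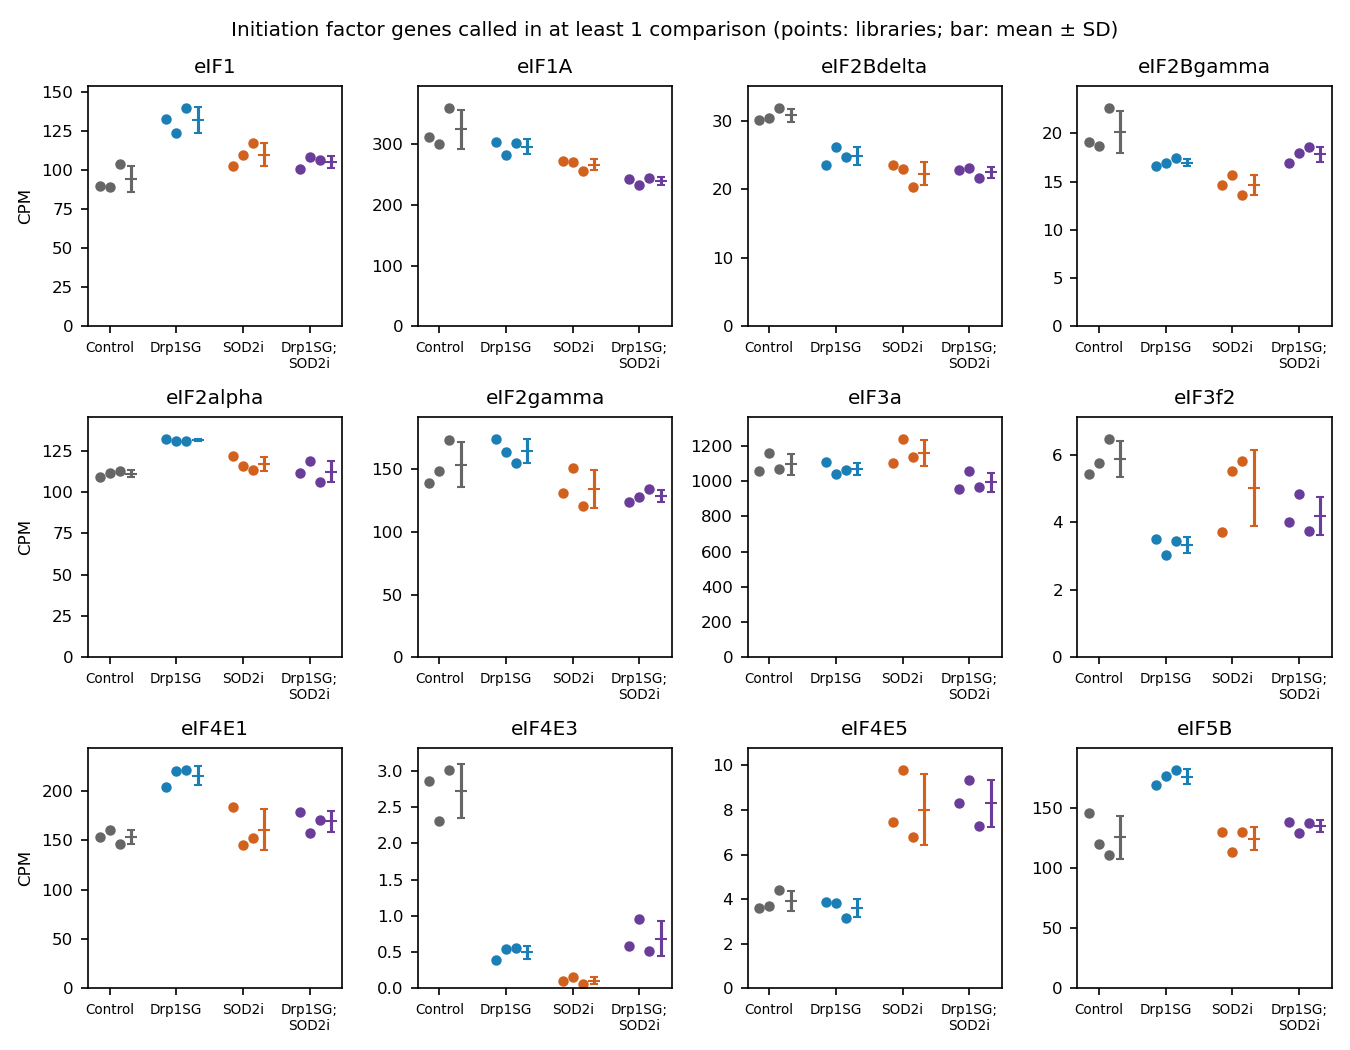
CPM of the 12 initiation factor genes called in at least 1 of the 6 comparisons, by genotype, with 1 point per library and a bar for the mean ± SD of 3 replicates. Each vertical axis starts at 0 and has its own scale. eIF4E3 falls from 2.30 to 3.01 CPM in Control to 0.0561 to 0.156 in SOD2i, eIF4E5 is higher in both genotypes with SOD2i, and eIF1, eIF2alpha, eIF4E1 and eIF5B are highest in Drp1SG.

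The other members of the cap-binding complex were called in no comparison of the main fit. The scaffold eIF4G1 stood at 690.5, 629 and 640.4 CPM in Control, 608, 609.8 and 641 in Drp1SG, 585, 574 and 573 in SOD2i and 601, 489 and 608 in the double genotype. SOD2i and the double genotype lay below Control, with log2 fold changes of -0.18 ± 0.08 (adjusted p = 0.125) and -0.21 ± 0.08 (adjusted p = 0.127). Under upper-quartile scaling eIF4G1 was called in SOD2i. The helicase eIF4A lay between 2205 and 2766 CPM over all libraries, and its cofactor eIF4H1 between 623 and 816 CPM. In SOD2i eIF4A was called by the DESeq2 Wald test and with the maternal index as covariate. With that covariate it was also called in Drp1SG, from Drp1SG to the double genotype and in the interaction. eIF4H1 was higher than Control in each genotype without overlap, by log2 fold changes of 0.14 ± 0.07, 0.17 ± 0.07 and 0.16 ± 0.07 (adjusted p = 0.194, 0.116 and 0.198), and it was called in all 3 with the maternal index as covariate. Its second copy eIF4H2 stood at 0.248 CPM per kb beside 163.6 for eIF4H1.

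eIF5B, the GTPase that joins the subunits, rose in Drp1SG. It was counted at 145, 119.7 and 111 CPM in Control, 169, 176 and 181 in Drp1SG, 129.8, 113 and 129 in SOD2i and 138, 129 and 137 in the double genotype. Drp1SG lay above all others, and the remaining genotypes overlapped. The log2 fold change was 0.49 ± 0.10 in Drp1SG (adjusted p = 0.00475), and with the maternal index as covariate 0.29 ± 0.09 (adjusted p = 0.0344). In SOD2i it was -0.01 ± 0.09 (adjusted p = 0.945) and in the double genotype 0.10 ± 0.09 (adjusted p = 0.546). From Drp1SG to the double genotype eIF5B fell by 0.38 ± 0.10 on the log2 scale (adjusted p = 0.0250), a call that was lost when any 1 of the 6 libraries compared was left out.

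When SOD2i was added to Drp1SG, 1 eIF gene rose and 6 fell, 19.4% of the tested eIF genes beside 10.9% of all tested genes, of which 5.05% rose and 5.82% fell. The gene that rose was eIF4E5, and the genes that fell were eIF1, eIF1A, eIF2alpha, eIF2gamma, eIF4E1 and eIF5B. Of these, eIF1, eIF2alpha, eIF4E1 and eIF5B had risen in Drp1SG against Control, and both comparisons use the Drp1SG libraries. Drp1 itself averaged less in the double genotype than in Drp1SG, and its part in these changes was not tested. All 6 of the falls were lost without 1 or more of the libraries compared, and the count came down from 7 to 1 without Drp1SG replicate 3, to 2 or 3 without any other of the 6 libraries compared and to 3 under upper-quartile scaling. Libraries did not overlap for 16 of the 36 genes, beside 39.1% of all genes. When Drp1SG was added to SOD2i, eIF4E3 rose and eIF3a fell, 5.56% of the tested eIF genes beside 19.3% of all tested genes, of which 10.5% rose and 8.79% fell. Libraries did not overlap for 10 of the 36, beside 37.2% of all genes.

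The interaction asks whether the double genotype differs from the sum, on the log2 scale, of the differences of its single genotypes. The level of Drp1 transcript also differed between Drp1SG and the double genotype, and its part in the interaction was not tested. The interaction was called for 5 eIF genes, 2 upward and 3 downward, 13.9% beside 16.5% of all tested genes, with 9.2% upward and 7.34% downward. eIF4E3 gave 5.14 ± 0.47 (adjusted p = 2.13e-05). In SOD2i it held as few as 4 reads in a library, which limits the size of this value. The double genotype held more of its transcript than SOD2i did. eIF2Bgamma gave 0.53 ± 0.14 (adjusted p = 0.0235). The values were -0.55 ± 0.12 for eIF1 (adjusted p = 0.00713), -0.30 ± 0.08 for eIF2alpha (adjusted p = 0.0291) and -0.42 ± 0.13 for eIF4E1 (adjusted p = 0.0423), 3 genes that were higher in Drp1SG than in the double genotype. The calls of eIF4E3 and eIF1 held without each library, and those of eIF2Bgamma, eIF2alpha and eIF4E1 were lost without 3, 5 and 10 of the 12 libraries in turn. Under upper-quartile scaling and with the filter of 1 CPM the calls of eIF2alpha and eIF4E1 were lost as well, and with no filter that of eIF4E1. For eIF4E5 the value was 0.17 ± 0.23 (adjusted p = 0.707) and for eIF2Bdelta 0.33 ± 0.12 (adjusted p = 0.0823).

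Over the 6 comparisons 12 of the 36 tested eIF genes were called at least once and 24 never. Against Control 10 were called, of which eIF4E3 and eIF2Bdelta were called in all 3 genotypes and eIF1A and eIF4E5 in 2. The matching shares of all tested genes were not computed, so these counts are given as a description only. Of the 30 tested genes with a mean of at least 10 CPM, 4 rose and 1 fell in Drp1SG, 3 fell in SOD2i and 2 fell in the double genotype. These were 16.7%, 10% and 6.67%, beside 18.6%, 23.2% and 8.91% of all tested genes at any level.

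Levels of some eIF genes also varied with the maternal index among replicates of the same genotype, as did those of many genes outside the set. Each of the 12 libraries was taken as its deviation from its genotype mean, and p values came from all 1296 exact permutations within genotypes, adjusted over all 9863 genes. Of the 36 eIF genes 8 passed, 2 with a positive and 6 with a negative relation, beside 15.5% of all tested genes. Whatever its p, r was -0.75 or lower for 14 of the 36, beside 13.3% of all tested genes. It was at least 0.75 for 3 of the 36, beside 14.4%. eIF4A gave Pearson r = -0.93 and Spearman rho = -0.83 (two-sided exact p = 0.00309 and 0.0154, adjusted p of r = 0.0323), and eIF3c gave r = -0.92 and rho = -0.88 (exact p = 7.72e-04, the smallest these permutations allow, and 0.00154, adjusted p = 0.0178). The other negative relations were those of eIF3b (r = -0.90, adjusted p = 0.0279), eIF3h (r = -0.88, adjusted p = 0.0178), eIF2beta (r = -0.88, adjusted p = 0.0468) and eIF3g1 (r = -0.86, adjusted p = 0.0234), by the same permutation test.

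The positive relations were those of eIF2Bepsilon, with r = 0.84 and rho = 0.78 (exact p = 0.00617 and 0.00849, adjusted p of r = 0.0441), and of eIF5B, with r = 0.79 and rho = 0.80 (exact p = 0.00694 and 0.0139, adjusted p = 0.0468). eIF4E1 gave r = 0.81 and rho = 0.76 (exact p = 0.0162 and 0.0170) and did not pass over all genes (adjusted p = 0.0766). Without SOD2i replicate 2 and Control replicate 3, the libraries farthest from the median of the index, r was -0.86 for eIF4A, -0.82 for eIF3c, 0.78 for eIF2Bepsilon, 0.79 for eIF4E1 and 0.60 for eIF5B. eIF4E3 gave r = -0.39 (exact p = 0.435). Members share their libraries, so these relations are not independent of each other.

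**Figure D4:**
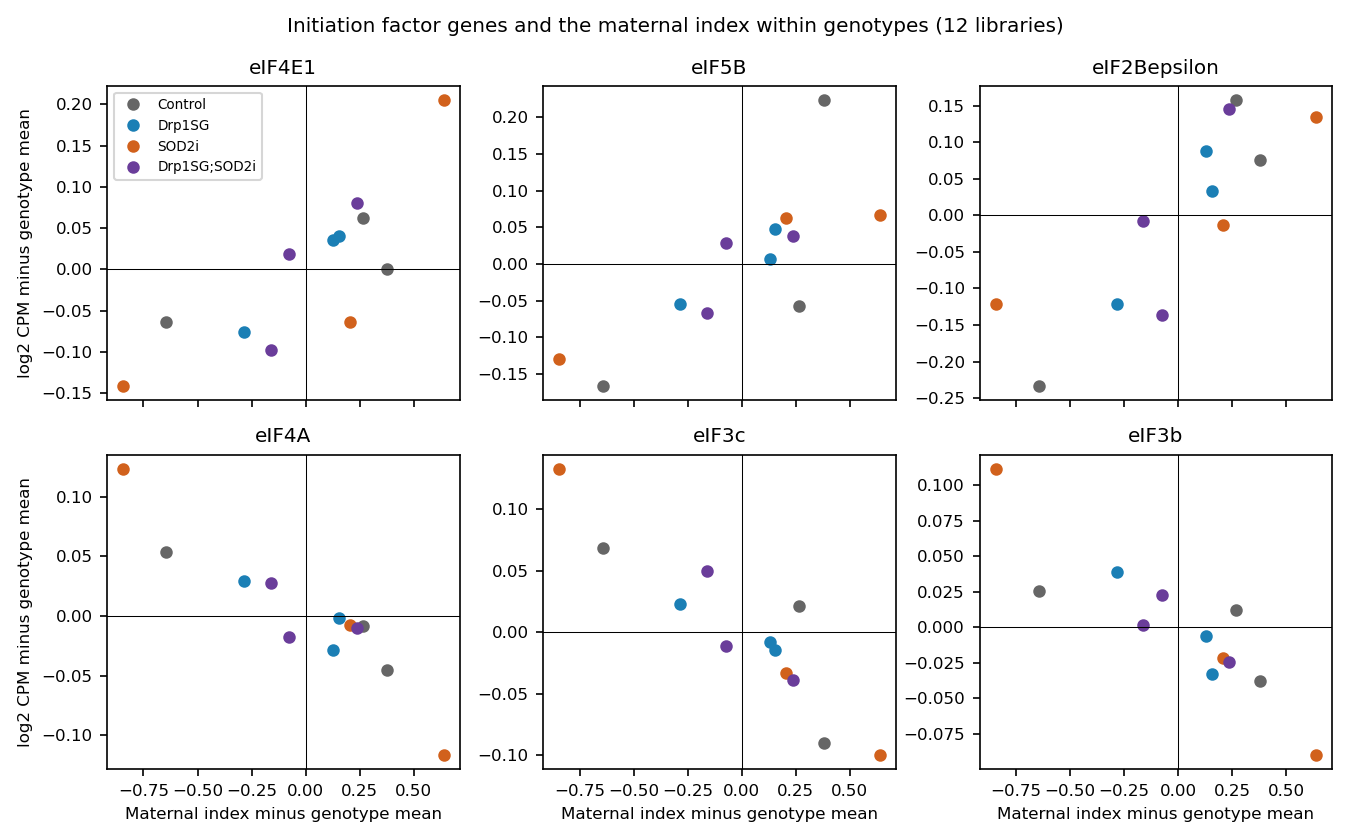
Deviation of log2 CPM from the genotype mean against the deviation of the maternal index, for 6 initiation factor genes, with 1 point for each of the 12 libraries coloured by genotype. eIF4E1, eIF5B and eIF2Bepsilon rise with the index (r = 0.81, 0.79 and 0.84), and eIF4A, eIF3c and eIF3b fall with it (r = -0.93, -0.92 and -0.90).

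Beyond the factors themselves, 16 tested regulators of initiation from a list of 20 were read in the same fit. In Drp1SG 4 rose (Thor, NAT1, Lk6 and bel). In SOD2i 6 rose (NAT1, Lk6, PEK, PPP1R15, Pdcd4 and pix) and Thor and mxt fell, and in the double genotype PPP1R15 and bel rose. The median log2 fold changes of the list were 0.13, 0.19 and 0.09. Of all tested genes 18.6%, 23.2% and 8.91% were called in Drp1SG, SOD2i and the double genotype, with median log2 fold changes of 0.01, 0.00 and 0.00.

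Thor, the 4E-BP that holds eIF4E1 away from eIF4G, averaged 17.9 ± 1.59 CPM for Control, 38.1 ± 14 for Drp1SG, 9.83 ± 2.09 for SOD2i and 19.9 ± 3.13 for the double genotype (SD, n = 3). It rose in Drp1SG, in which eIF4E1 also rose, with a log2 fold change of 1.09 ± 0.24 (adjusted p = 0.00822). With SOD2i alone Thor fell by 0.86 ± 0.24 on the log2 scale (adjusted p = 0.0209). NAT1, a relative of eIF4G, averaged 616 ± 44.4, 773 ± 27.5, 796 ± 83.3 and 604 ± 22.7 CPM in the same order, with an interaction of -0.72 ± 0.11 (adjusted p = 0.00117). Lk6, the kinase of eIF4E1, gave an interaction of -0.63 ± 0.11 (adjusted p = 0.00242).

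Of 13 elongation and termination factors, 1 fell in Drp1SG, and 1 rose and 3 fell in SOD2i, by edgeR, beside calls for 18.6% and 23.2% of all tested genes. The gene that rose was pix, which is also in the list of regulators and was counted there. In the double genotype edgeR called 0 of the 13, with 3 at an unadjusted p under 0.05, beside calls for 8.91% of all tested genes. There limma with voom called 0 and the DESeq2 Wald test called 1. eEFSec, the elongation factor for selenocysteine, averaged 12.6 ± 2.34 CPM for Control, 7.20 ± 0.735 for Drp1SG, 6.58 ± 0.626 for SOD2i and 9.78 ± 0.893 for the double genotype. Its interaction was 1.38 ± 0.21 (adjusted p = 9.71e-04), in the same direction as that of eIF4E3.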

How the data were processed

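Poly(T)-captured RNA was sequenced from libraries made from 200 ng of total RNA, per the labels' protocols. Tests used the raw count of reads for each gene that the authors deposited. Their deposited DESeq2 tables, 1 per genotype, give for every gene the log2 fold change from Control with its p-value. DESeq2, featureCounts 1.5.2, HISAT2 2.1.0, Bowtie2 2.2.4 and Trimmomatic are listed in the submitters' processing notes without their roles. Genome build and counting strand are not given in the sources used here, so no coordinates are printed. How reads of paralogues or of overlapping genes were assigned is not given either, and such genes are uncertain to that extent.

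After filterByExpr and TMM scaling, a quasi-likelihood model with 1 mean per genotype was fitted to the 12 libraries in edgeR 4.0.16 (R 4.3.3). p-values were adjusted by Benjamini-Hochberg over 9863 genes. Each of the 3 other genotypes was set against Control, the double genotype against Drp1SG and against SOD2i, and the interaction was tested. CPM were computed on TMM-scaled library sizes, with a prior count of 2 before taking log2. The procedure was run on counts simulated from the spread in these data, a check of the code and not of the calls. Overlaps of gene spans came from the RefSeq table of Release 6, matched by locus tag for 17827 of 17868 genes, and exon lengths from Ensembl. Per-kb levels were given where at least 50% of the exon bases were unshared.

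Every eIF gene is accounted for. Genes called against Control or in the interaction, and paralogues, are given with their values, and others by range and count. The members and lists were chosen with earlier results of these data known. Neighbouring genes, and eIF2beta, eIF2gamma and eIF3a for values by library, were chosen after values were seen. Alternatives were the Wald test and the size factors of DESeq2 1.42.0, limma 3.58.1 with voom, upper-quartile scaling, 1 CPM in 3 libraries or no filter, fits of only the groups compared, a block for replicate number, the maternal index as a covariate, and leaving out each library. A fit with a library left out pools the spread over genotypes. Limits set from 3 counts cover counting error only, because separate reads need not be separate molecules.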

Additional observations from a re-analysis of the deposited data

Results flagged for a closer look

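For 5 eIF genes the difference between genotypes with and without Drp1SG itself differed with SOD2i, by a test of the interaction in edgeR. Drp1 transcript averaged less in the double genotype than in Drp1SG, and its part in these results was not tested. The interaction on the log2 scale was 5.14 ± 0.47 for eIF4E3 (adjusted p = 2.13e-05), a gene that stood at 18.2% of Control in Drp1SG and 3.90% in SOD2i and at 25.2% in the double genotype. It was -0.55 ± 0.12 for eIF1 (adjusted p = 0.00713), which stood highest in Drp1SG. It was 0.53 ± 0.14 for eIF2Bgamma (adjusted p = 0.0235), which was lowest in SOD2i. It was -0.30 ± 0.08 for eIF2alpha (adjusted p = 0.0291) and -0.42 ± 0.13 for eIF4E1 (adjusted p = 0.0423), both highest in Drp1SG. The eIF2alpha call was lost in 3 of 8 other settings and in 5 of 12 fits without 1 library, and the eIF4E1 call in 4 of 8 and 10 of 12. The eIF2Bgamma call was lost in 3 of the 12 fits without 1 library. The size of the eIF4E3 value is limited by SOD2i, where that gene held as few as 4 reads in a library.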

How the results depend on the processing

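No alternative turned the direction of a called value of the 12 eIF genes called at least once. Over these 12 genes in the 6 comparisons, 606 values stayed on their side of the threshold, 21 lost a call and 9 gained one under other settings, and 803, 56 and 5 did so when 1 library was left out. Gains of the other eIF genes are not in this tally and enter the counts that follow. The count of eIF genes called in Drp1SG went from 7 to 11 with the maternal index as a covariate. Over all tested genes it went from 1830 to 2114. In SOD2i the eIF count went from 5 to 8 by the DESeq2 Wald test and to 13 with the covariate. It was 3 with only the groups compared. All genes called there went from 2286 to 2700, 3350 and 1263 in turn. From Drp1SG to the double genotype the eIF count went from 7 to 3 under upper-quartile scaling, beside 1072 to 932 over all genes. From SOD2i to the double genotype the eIF count went from 2 to 1 under upper-quartile scaling and 4 with the filter of 1 CPM. It was 5 by the Wald test and 6 with the covariate. All genes called there went from 1903 to 1625, 1566, 2383 and 2744 in turn. The interaction count went from 5 to 3 with replicate number as a block and to 11 with the covariate. Over all genes it went from 1631 to 1423 and 2716. The interaction needs all 4 genotypes and has no value with only the groups compared. The cause of these shifts was not tested.

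Leaving out 1 library at a time gave 6 to 8 eIF genes in Drp1SG, 4 to 8 in SOD2i (8 without SOD2i replicate 1) and 4 to 5 in the double genotype. It gave 1 to 7 from Drp1SG to the double genotype (1 without Drp1SG replicate 3 and at most 3 without any other library compared). From SOD2i it gave 1 to 6, with 6 without Control replicate 3, 4 without Control or SOD2i replicate 1, and 1 without SOD2i replicate 3 or double genotype replicate 1 or 3. It gave 2 to 6 for the interaction, with 2 without Drp1SG replicate 2 or double genotype replicate 3, and 3 without Control replicate 3, Drp1SG replicate 3 or double genotype replicate 1. Deviations of same-numbered replicates correlated at r from -0.27 to 0.22, with 6 of 18 pairs over 0.1, so the numbers were not taken to pair the libraries. The replicate block left 7, 5, 4, 5, 2 and 3 eIF genes called in the 6 comparisons in turn, and eIF2alpha and eIF2gamma were lost from Drp1SG to the double genotype and eIF2alpha and eIF4E1 from the interaction.

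Counts over all genes moved as well. In SOD2i 2286 genes became 1263 with only the groups compared, in the double genotype 879 became 1349 by the Wald test, and from Drp1SG to the double genotype 1072 became 1848 with only the groups compared and 2548 with the covariate. The interaction's 1631 became 2716 with the covariate. Without 1 library the lowest counts were 1112 in Drp1SG (without Drp1SG replicate 2), 467 in the double genotype (without its replicate 3), 571 from Drp1SG to it (without its replicate 2) and 1199 from SOD2i to it (without SOD2i replicate 3). Under upper-quartile scaling 760 of 1770 calls in Drp1SG and 632 of 2067 in SOD2i were upward, beside 959 of 1830 and 1019 of 2286. Depth limits eIF4E6, eIF4E7 and eIF4H2, which held at most 52 reads in a library. It also limits the size of eIF4E3 values that use SOD2i, where that gene held as few as 4 reads in a library.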
